A study of Homo sapiens with 8 samples.

Results

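The 32 genes described here belong to the integrated stress response and to the charging of transfer RNA with amino acids. They comprise 17 regulators and effectors of the ATF4 axis, 3 genes of the translation factor eIF2 and its kinases, and 12 cytosolic aminoacyl-tRNA synthetases, taken by name from the 55765 gene names of the tables. Of the 32, 31 had a mean of at least 1 TPM (an abundance scaled for transcript length and to the same total in every library) and entered the tests. The exception was NUPR1, a stress-induced nuclear protein, which was listed at 0 in all 8 libraries.

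The libraries come from total RNA of 2 established human acute myeloid leukaemia lines. NB4 derives from a promyelocytic leukaemia with the PML-RARA fusion gene. Kasumi-1 carries the fusion of RUNX1 with RUNX1T1. Each line gave 1 library of untreated cells and 1 library each after 6, 12 and 24 h in 40 uM chlorprothixene, a thioxanthene antipsychotic. All cells grew in serum-supplemented medium. With 1 library per condition no value has an error from replicate cultures, and each line stands only for itself. The untreated library of a line serves all 3 times, so those comparisons share it. No vehicle is named, and drug and time in culture cannot be told apart.

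In the integrated stress response, kinases such as EIF2AK3 (PERK, which senses unfolded protein in the endoplasmic reticulum) and EIF2AK4 (GCN2, which senses uncharged transfer RNA) phosphorylate EIF2S1, the alpha subunit of eIF2. Translation initiation then slows in general, while the ATF4 mRNA is translated more because of its upstream open reading frames. The ATF4 protein, paired with C/EBP family members, binds C/EBP-ATF response elements near genes for amino acid synthesis, transport and tRNA charging, and it induces feedback inhibitors such as TRIB3 and PPP1R15A. Control by phosphorylation and by translation is not visible in RNA levels, which are what these libraries measure.

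The core of that element, TGATGNAA, was searched on both strands in the RefSeq promoter windows (GRCh38.p14, 250 bases before to 50 after a gene's start), which held 28 of the 32 members. It occurred in 7 of 10 synthetases (AARS, GARS, MARS, NARS, IARS, TARS and CARS) and in 4 of 15 regulators (ATF3, CHAC1, CEBPG and JDP2). None of the 3 eIF2 and kinase genes held it, and none of 9 cytosolic synthetase and scaffold genes outside the members. It was in 5 of 17 further ATF4 targets (26 were listed), 1 of 14 mitochondrial synthetases, 1 of 10 other eIF2 pathway components and none of 13 genes of endoplasmic reticulum stress. Among all 27305 genes of the table, 4.46% had the motif, as did 3.62% of the 35116 windows. The exact form TGATGCAA was present in 6 of the 10 synthetases, 3 of the 15 regulators and 1.08% of all genes. A match describes letters in a window and says nothing of binding. The stretches below, from genes of both groups, are written on the gene's strand, 5′ to 3′, with the match in capitals. ATF3 and NARS are not shown. Their matches began 191 bases before the start in ATF3 and on base 15 of the transcript in NARS. TTGCATCA and TTTCATCA are the motif read on the opposite strand.
AARS: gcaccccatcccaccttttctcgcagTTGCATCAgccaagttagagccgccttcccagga
GARS: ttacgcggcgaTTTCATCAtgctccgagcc
MARS: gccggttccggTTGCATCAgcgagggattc
IARS: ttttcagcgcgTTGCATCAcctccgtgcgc
CARS: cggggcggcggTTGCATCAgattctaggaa
TARS: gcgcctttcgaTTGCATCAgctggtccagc
CEBPG: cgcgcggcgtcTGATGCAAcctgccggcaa
JDP2: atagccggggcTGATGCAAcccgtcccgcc
CHAC1: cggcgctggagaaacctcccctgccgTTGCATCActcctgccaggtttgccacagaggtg

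In the same order these lie on GRCh38.p14 at chr16:70289660-70289719 (minus strand), chr7:30594834-30594863 (plus), chr12:57488053-57488082 (plus), chr9:92293692-92293721 (minus), chr11:3057407-3057436 (minus), chr5:33440956-33440985 (plus), chr19:33374060-33374089 (plus), chr14:75427995-75428024 (plus) and chr15:40953236-40953295 (plus). The match began 187 bases before the start in AARS and 209 before in CHAC1. In the other promoters shown it lay close to the start: 33 bases before it in GARS, 4 in MARS, 13 in IARS, 2 in CARS, 42 in CEBPG and 16 in JDP2, and on the third base of the transcript in TARS. RefSeq names several of these genes AARS1, GARS1 and so on.

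Between 13358 and 14582 genes reached 1 TPM in a library. Mitochondrially encoded genes took 5.04% to 6.71% of the TPM in NB4, with 8.73%, 7.94%, 10.58% and 17.12% in Kasumi-1 (untreated, 6, 12 and 24 h, the order of every list of 4 values below). Of 7 myeloid markers, 6 reached 1 TPM in NB4 and all 7 in Kasumi-1. KIT, CD34 and RUNX1T1, which mark Kasumi-1, summed to 172 to 654 TPM there and to at most 0.34 TPM in NB4. The 3 erythroid markers were at 0 in every library and the 3 fibroblast markers summed to at most 0.286 TPM. The 5 lymphoid markers summed to 9.52 to 21.3 TPM in NB4, with 4.83 to 15 TPM in Kasumi-1, with MS4A1 at 0. The 4 epithelial markers summed to 18.4 to 23.3 and 17.6 to 29.7 TPM, most of it EPCAM (15.7 to 29.7 TPM), with KRT8 at 2.66 to 4.93 TPM in NB4 and 0 in Kasumi-1, and KRT19 at 0. The part of these markers in the results below was not tested.

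The ATF4 mRNA was higher than untreated at every time in both lines, most of all at 6 h in Kasumi-1. ATF4, the central transcription factor of the response (chromosome 22, 39915700 to 39918691, hg19 as in all gene coordinates below), stood at 549, 809.9, 637 and 626 TPM in NB4, with 579.8, 1072, 892 and 698 TPM in Kasumi-1. The untreated libraries were the lowest of each line, and the 6 h libraries, at 1.48 and 1.85 times untreated, the highest. ATF5, a related factor translated under the same control (chromosome 19, 50431959 to 50437192), was at 45.1, 82.2, 47.9 and 48.8 TPM in NB4, with 45.8, 89.6, 104 and 58.1 TPM in Kasumi-1. Here the lines parted at 12 h, where NB4 was back near its untreated level and Kasumi-1 was at its highest. ATF5 overlaps the oppositely transcribed NUP62 by 1062 bases, NUP62 lay between 49 and 166 TPM, and whether reads were assigned by strand is not given in the sources used here.

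ATF3, an early stress factor of the same family (chromosome 1, 212738676 to 212794119), was lower with the drug. It was at 22.1, 20.02, 14.1 and 18.0 TPM in NB4, with 30.0, 22.3, 19.4 and 10.8 TPM in Kasumi-1, so every treated library was below its untreated one. DDIT3 (CHOP, a C/EBP-related factor linked to cell death under prolonged stress, chromosome 12, 57910371 to 57914300) separated the lines. It stood at 62.7, 48.1, 50.9 and 40.6 TPM in NB4, with 26.9, 56.7, 60.5 and 39.7 TPM in Kasumi-1. All 3 treated NB4 libraries were below the untreated one and all 3 treated Kasumi-1 libraries above it. At 6 h Kasumi-1 was at 2.11 times untreated and NB4 at 0.767 times, and at 24 h both were near 40 TPM. The last 982 bases of DDIT3 (57910371 to 57911352) overlap MARS on the other strand, itself at 170 to 320.1 TPM, so reads there cannot be told apart without strand.

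CEBPG, a dimer partner of ATF4, ranged from 31.8 to 46.0 TPM in NB4, with from 47.8 to 86.0 TPM in Kasumi-1, with the highest value of each line at 6 h. JDP2, a repressor of the AP-1 and ATF families (chromosome 14, 75894419 to 75940814), was at 37.8, 35.0, 24.7 and 12.5 TPM in NB4, with 13.2, 15.9, 26.3 and 25.8 TPM in Kasumi-1. The lines began far apart and crossed between 6 and 12 h, with NB4 at 0.331 times untreated and Kasumi-1 at 1.95 times at 24 h. By the deposited read coverage, scaled per library, the NB4 difference of JDP2 at 24 h was -1.02 on the log2 scale in place of -1.52.

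**Figure D1:**
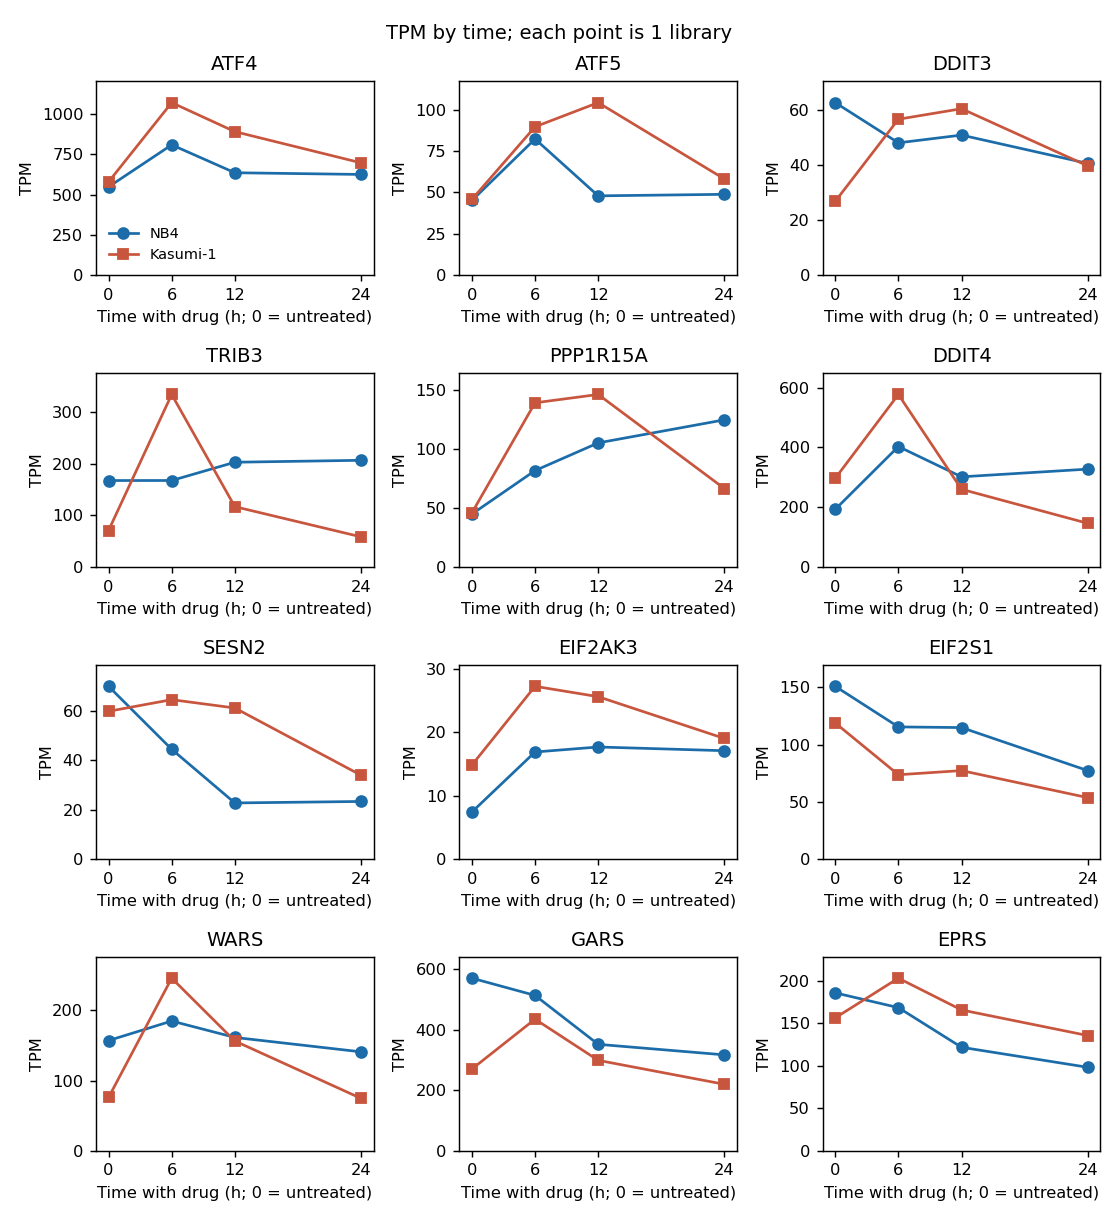
TPM (vertical axes, from 0) of 12 members against hours with chlorprothixene (0 is untreated) in NB4 (blue circles) and Kasumi-1 (red squares), where each point is 1 library. TRIB3 and WARS peak at 6 h in Kasumi-1 (333 and 246 TPM) and vary less in NB4, PPP1R15A is higher than untreated at every time in both lines, and EIF2S1 is lower.

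TRIB3 and PPP1R15A, both feedback inhibitors, showed the highest values relative to untreated among the regulators. TRIB3, a pseudokinase that restrains ATF4 and AKT (chromosome 20, 361261 to 378203), stood at 167, 167, 202 and 206 TPM in NB4, with 70.6, 333, 117 and 58.4 TPM in Kasumi-1. At 6 h it was at 4.72 times untreated in Kasumi-1 and level with untreated in NB4, and by 24 h the Kasumi-1 library was below its untreated one. PPP1R15A, the GADD34 subunit that directs phosphatase to eIF2 and so ends the response (chromosome 19, 49375649 to 49379314), was at 44.8, 81.6, 105 and 125 TPM in NB4, with 45.8, 139, 146 and 66.4 TPM in Kasumi-1. The untreated lines were almost equal. The highest NB4 library was that of 24 h (2.78 times untreated), whereas Kasumi-1 was highest at 12 h and at 1.45 times untreated by 24 h.

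DDIT4 and SESN2 both restrain the mTORC1 growth pathway, and they did not run in parallel. DDIT4 (REDD1, chromosome 10, 74033678 to 74035794) was at 193, 403, 302 and 327 TPM in NB4, with 297, 577, 260.0 and 146 TPM in Kasumi-1. It was about doubled at 6 h in both lines (2.09 and 1.94 times untreated), then stayed high in NB4 and stood at 0.493 times untreated at 24 h in Kasumi-1. SESN2, a leucine-sensing sestrin (chromosome 1, 28586038 to 28609002), was at 69.9, 44.4, 22.7 and 23.3 TPM in NB4, with 59.8, 64.5, 61.1 and 33.9 TPM in Kasumi-1. In NB4 it was at 0.333 times untreated at 24 h, and in Kasumi-1 only the 24 h library was well below the others. EIF4EBP1, which binds the cap-binding protein eIF4E, ranged from 321 to 444 TPM in NB4, with 173 to 269 TPM in Kasumi-1, and in both lines the 24 h library was the lowest.

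Among the regulators tied to sulphur amino acids and secretion, CHAC1, CBS and STC2 differed widely between the untreated lines, and CTH much less. CHAC1, a glutathione-degrading enzyme (chromosome 15, 41245160 to 41248710), was at most 0.341 TPM in any NB4 library and at 37.2, 26.2, 17.9 and 8.94 TPM in Kasumi-1, the untreated library being the highest. CBS, the first enzyme of transsulphuration (chromosome 21, 44473301 to 44497053), was listed at 0, 0.125, 0 and 0.188 TPM in NB4 and stood at 18.1, 48.6, 38.5 and 15.8 TPM in Kasumi-1. No fold is given for these 2 genes in NB4, where they were near 0. CTH, the second enzyme of transsulphuration (chromosome 1, 70876901 to 70905534), was at 10.2, 6.56, 4.71 and 5.91 TPM in NB4, with 7.50, 2.78, 3.92 and 3.85 TPM in Kasumi-1. Unlike CBS it was below untreated in all 6 treated libraries.

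STC2, a secreted glycoprotein (chromosome 5, 172741716 to 172756506), was at 7.25, 2.85, 2.47 and 4.62 TPM in NB4, with 19.1, 37.8, 17.7 and 10.2 TPM in Kasumi-1. At 6 h the lines stood on opposite sides of untreated, at 0.394 times untreated in NB4, against 1.98 times in Kasumi-1. XPOT, the exporter of transfer RNA from the nucleus, ranged from 117 TPM (24 h) to 220.3 TPM (6 h) in NB4. In Kasumi-1 it ranged from 130.4 TPM (untreated) to 173 TPM (6 h).

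The genes at the top of the pathway differed in direction. EIF2AK3 (PERK, chromosome 2, 88856259 to 88927094) was at 7.41, 16.9, 17.7 and 17.1 TPM in NB4, with 14.8, 27.3, 25.6 and 19.0 TPM in Kasumi-1. Every treated library lay above its untreated one, by 2.28 times at 6 h in NB4, against 1.84 times in Kasumi-1. EIF2AK4 (GCN2) ranged from 54.3 to 77.3 TPM in NB4, with 26.7 to 36.2 TPM in Kasumi-1, and the untreated library was the highest in both.

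EIF2S1, the subunit that both kinases phosphorylate (chromosome 14, 67826714 to 67853233), was at 151, 115, 115 and 77.2 TPM in NB4, with 119, 73.6, 77.2 and 53.6 TPM in Kasumi-1. All 6 treated libraries were below untreated, to 0.512 and 0.451 times at 24 h. The size of that difference depended on the deposited quantity. Scaled coverage of EIF2S1 was 84.1, 81.4, 80.6 and 74.1 in NB4, against 71.8, 59.9, 47.1 and 44.8 in Kasumi-1, so the 24 h difference was -0.18 by coverage and -0.96 by TPM in NB4 (log2), and -0.67 and -1.14 in Kasumi-1. EIF2S1 was the 1 member of 31 whose difference by coverage and by TPM parted by over 0.5 in any library; the median of the largest gaps was 0.06. It overlaps ATP6V1D (at most 34.7 TPM) by 269 bases.

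The synthetases, each of which joins 1 amino acid to its transfer RNA (EPRS joins 2), were abundant and stayed within a narrower band than the regulators. WARS, for tryptophan (chromosome 14, 100800125 to 100843142), had the largest difference: 157, 185, 162 and 141 TPM in NB4, with 76.0, 246, 157 and 74.6 TPM in Kasumi-1. Kasumi-1 reached 3.24 times untreated at 6 h and was at 0.982 times at 24 h, while NB4 stayed between 0.898 and 1.18 times at those times. No other synthetase was 2-fold away from untreated in any library.

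GARS, EPRS, AARS and CARS are also given in full, and were picked after their values were seen. GARS, for glycine (chromosome 7, 30634297 to 30673649), was the most abundant on average and stood at 571, 514, 352 and 317 TPM in NB4, with 270.3, 435, 299 and 219.8 TPM in Kasumi-1. EPRS, for glutamate and proline (chromosome 1, 220141943 to 220220000), was at 186, 168, 122 and 98.2 TPM in NB4, with 156, 203, 166 and 136 TPM in Kasumi-1. Both genes were highest untreated in NB4 and highest at 6 h in Kasumi-1. AARS, for alanine (chromosome 16, 70286198 to 70323446), was at 222, 253, 186 and 176 TPM in NB4, with 136, 237, 194 and 207 TPM in Kasumi-1. CARS, for cysteine (chromosome 11, 3022152 to 3078843), was at 96.8, 91.7, 66.7 and 77.9 TPM in NB4, with 38.6, 70.2, 72.3 and 56.6 TPM in Kasumi-1. In these 2 all treated Kasumi-1 libraries stood above untreated, at 1.52 and 1.47 times even at 24 h, and in NB4 the 12 and 24 h libraries stood below.

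The other 7 synthetases were those for tyrosine, methionine, serine, asparagine, isoleucine, threonine and leucine. YARS ranged from 244 to 388 TPM, MARS from 170 to 320.1, SARS from 97.5 to 161, NARS from 128 to 203, IARS from 194 to 320.2, TARS from 134 to 358 and LARS from 152 to 207 TPM over the 8 libraries. In Kasumi-1 each except LARS was highest at 6 h, at 1.15 (IARS) to 1.44 (TARS) times untreated; LARS was at 0.909 times. By scaled coverage the TARS difference at 6 h in Kasumi-1 was 0.11 on the log2 scale and by TPM 0.52. MARS overlaps ARHGAP9 (18 to 128 TPM) by 13370 bases besides DDIT3, both on the other strand.

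**Figure D2:**
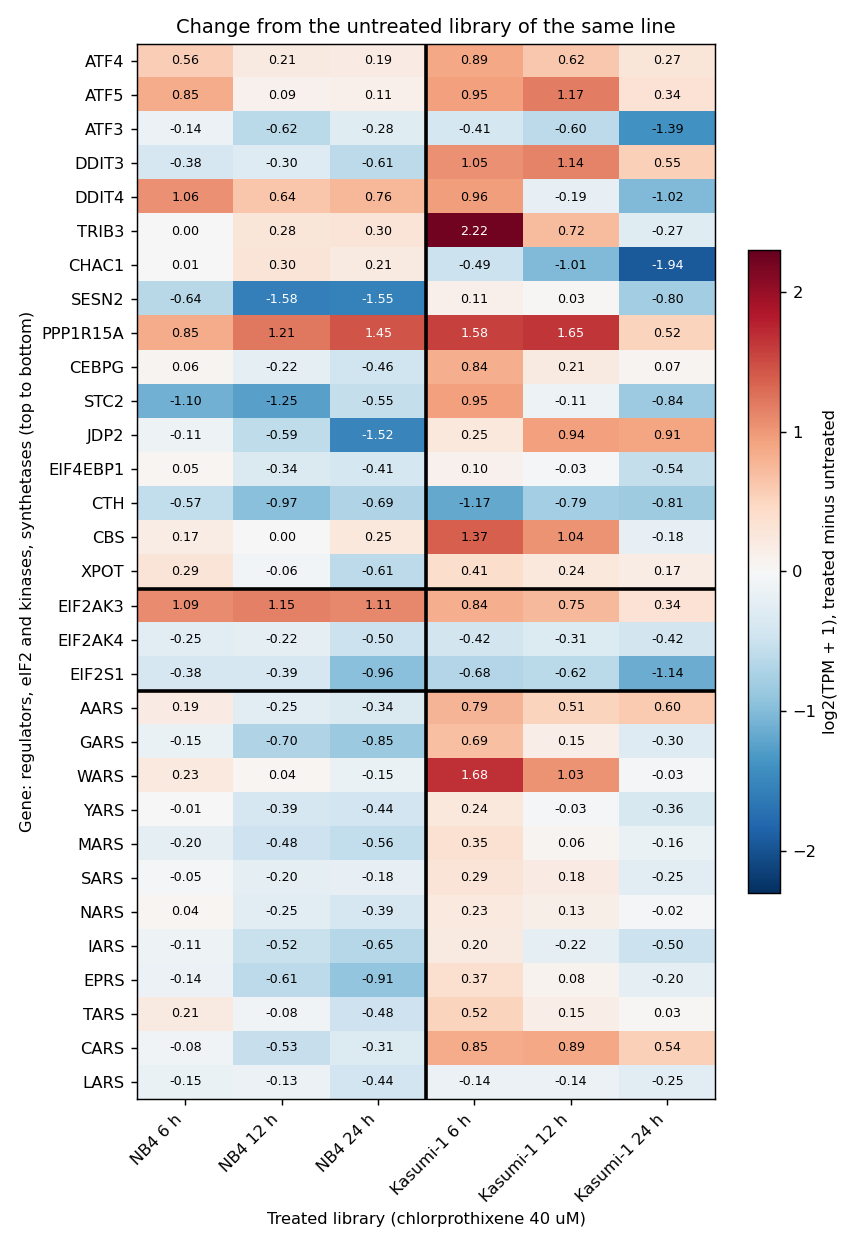
Difference in log2(TPM + 1) of each of the 31 measured members (rows, grouped by role) between a treated library and the untreated library of its line (columns), with the value in each cell, red above and blue below untreated. The Kasumi-1 6 h column is mostly red among regulators and synthetases, from TRIB3 at 2.22 to CTH at -1.17, and the NB4 24 h column is blue for all 12 synthetases.

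Set side by side, regulators and synthetases had the same order of medians over time in each line, and the regulators were the more dispersed. The median difference from untreated of the 16 measured regulators, on the log2(TPM + 1) scale, was 0.03, -0.14 and -0.35 at 6, 12 and 24 h in NB4, against 0.86, 0.22 and -0.23 in Kasumi-1. For the 12 synthetases it was -0.06, -0.32 and -0.44 in NB4, against 0.36, 0.14 and -0.18 in Kasumi-1, and over the 14650 genes tested between -0.08 and 0.01. Within each line, both medians were thus highest at 6 h among the treated times and below 0 at 24 h. In NB4 the synthetases were already slightly below untreated at 6 h, with 8 of 12 below it. The interquartile range of the differences was 0.56 to 1.10 among regulators and 0.22 to 0.47 among synthetases. Summed, the 12 synthetases made up 3091, 3029, 2388 and 2151 TPM in NB4, with 2070.0, 2833, 2273 and 1868 TPM in Kasumi-1.

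At 24 h in Kasumi-1 the mitochondrial share of TPM was also at its highest, 17.12%. With TPM recomputed without mitochondrially encoded and the most abundant genes, the medians there were -0.09 for regulators and -0.04 for synthetases. Those of Kasumi-1 at 6 h were unaltered to 2 decimals, at 0.86 and 0.36. In bulk RNA, less of a transcript per cell and fewer cells holding it cannot be told apart.

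Counted by direction, synthetases above untreated numbered 4, 1 and 0 of 12 at 6, 12 and 24 h in NB4, against 47.2%, 50.6% and 48.2% of all genes tested. In Kasumi-1 they numbered 11, 9 and 3 of 12, against 48.2%, 42.7% and 45.5%. The regulators above untreated numbered 10, 6 and 7 of 16 in NB4, against 13, 10 and 7 of 16 in Kasumi-1. Thus all 12 synthetases were below untreated in NB4 at 24 h, and 11 of 12 were above it in Kasumi-1 at 6 h, LARS being the exception. At 6 h in Kasumi-1 the 7 synthetases with the promoter motif and the 3 with a window that lacks it were all above untreated. Their medians were 0.52 and 0.37. The 4 regulators with it had a median of -0.08 in that library and the 11 without it 0.95. Of all tested genes with a window, 51.5% of the 237 with the motif and 46.1% of the 8903 without it were above untreated there. A gene without it lacks it only in that window, and the part of the motif in these differences was not tested.

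Differences of at least 2-fold were mostly among regulators. In NB4 at 6 h, DDIT4 and EIF2AK3 were at least 2-fold higher (3.06% of all genes tested) and STC2 2-fold lower (2.27%). At 12 h PPP1R15A and EIF2AK3 were higher (5.60%) and SESN2 and STC2 lower (2.37%), and at 24 h PPP1R15A and EIF2AK3 were again higher (6.51%) and SESN2 and JDP2 lower (2.88%). In Kasumi-1 at 6 h 4 regulators (TRIB3, PPP1R15A, CBS and DDIT3) and WARS were higher (6.44%) and CTH lower (2.99%). At 12 h 4 regulators (PPP1R15A, ATF5, DDIT3 and CBS) and WARS were higher (4.85%) and CHAC1 lower (3.52%). At 24 h no member was higher (5.11%), and CHAC1, ATF3, DDIT4 and EIF2S1 were lower (3.88%). The share of members higher in NB4 at 12 and 24 h was close to that of all genes. So were the shares lower in NB4 at 6 h and in Kasumi-1 at 6 and 12 h. PPP1R15A alone among the members was 2-fold higher in both lines, at 12 h in each.

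**Figure D3:**
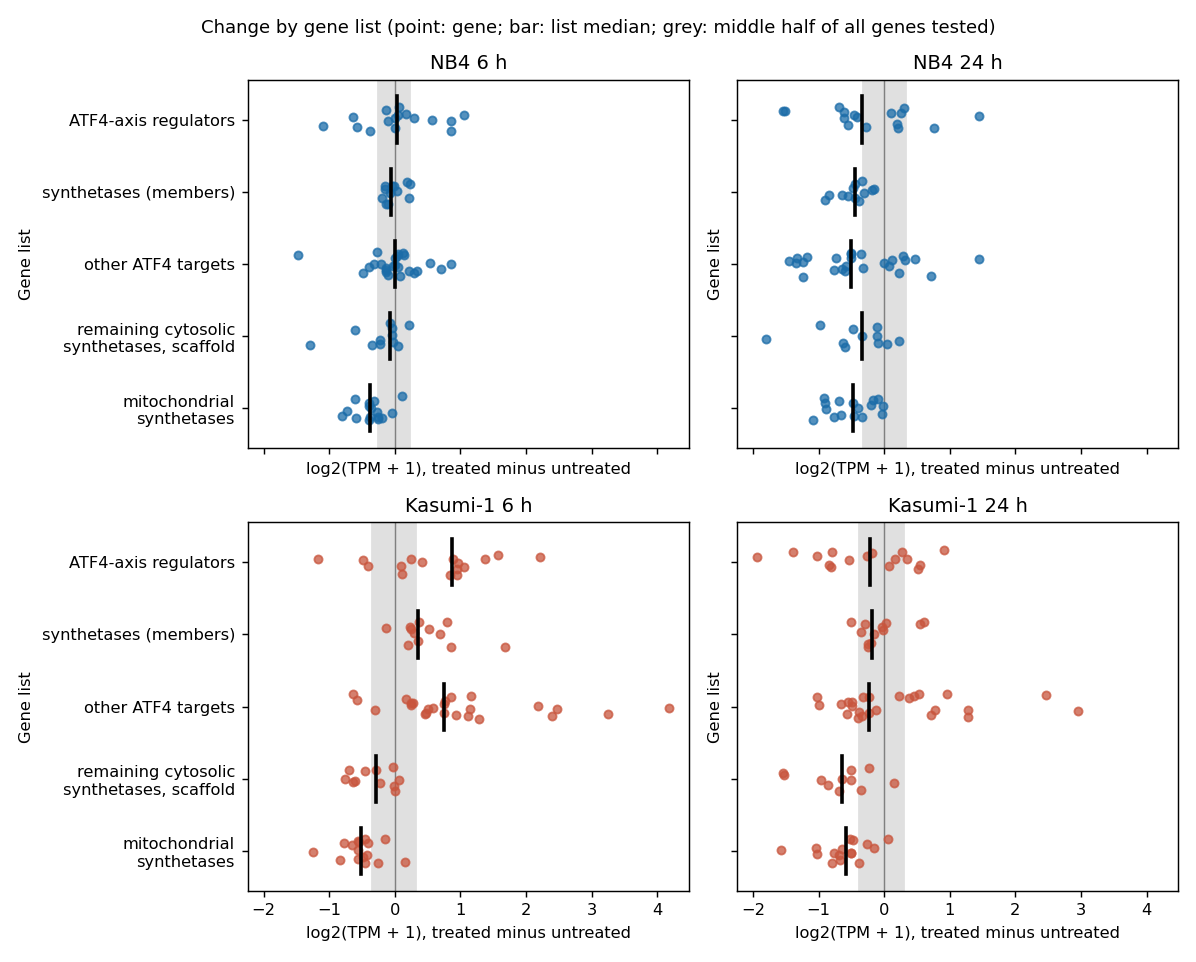
Difference in log2(TPM + 1) from untreated (horizontal axis) of single genes (points) in 5 gene lists (rows), with list medians (black bars), at 6 and 24 h in NB4 (blue) and Kasumi-1 (red); the grey band spans the interquartile range of all genes tested. At 6 h in Kasumi-1 the regulators, the synthetases and the other ATF4 targets have medians of 0.86, 0.36 and 0.75, and the remaining cytosolic and the mitochondrial synthetases -0.29 and -0.51.

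The members were set beside lists of related genes. The 11 cytosolic synthetase and scaffold genes outside the members had medians of -0.08, -0.20 and -0.34 in NB4, against -0.29, -0.41 and -0.65 in Kasumi-1, and 1 of 11 was above untreated at each time in Kasumi-1. The 16 measured mitochondrial synthetases had medians of -0.37, -0.32 and -0.47 in NB4, against -0.51, -0.51 and -0.59 in Kasumi-1. At 6 h in Kasumi-1, 11 of 12 member synthetases were thus above untreated, but 1 of 11 and 1 of 16 in these other lists. The difference between the lists was not tested, and members and lists were chosen with earlier results of these data known.

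Of 26 further ATF4 target genes, 25 were measured, with medians of 0.00, -0.35 and -0.50 in NB4, against 0.75, 0.29 and -0.24 in Kasumi-1. Their medians were lower at each later time, as were those of the regulators. The remaining cytosolic synthetase and scaffold genes had that order too in both lines, so it was not particular to ATF4 targets. At least 2-fold higher were 0, 1 and 1 of these 25 targets in NB4, against 9, 6 and 4 in Kasumi-1, and 2-fold lower 1, 3 and 6 in NB4, against 0, 0 and 1 in Kasumi-1. NDRG1, a stress and hypoxia gene, stood at 5.68, 5.84, 6.29 and 9.97 TPM in NB4, with 3.63, 82.9, 34.9 and 24.7 TPM in Kasumi-1. The glycine transporter SLC6A9 was at most 0.087 TPM in NB4, with at 5.06, 32.6, 29.3 and 13.6 TPM in Kasumi-1, and it overlaps CCDC24. CCPG1, a receptor for degradation of the endoplasmic reticulum, was at 94.2, 33.3, 43.7 and 36.9 TPM in NB4, with 4.59, 52.3, 17.2 and 42.3 TPM in Kasumi-1; it overlaps 2 other expressed genes, and was below untreated in NB4 and above it in Kasumi-1 at every time.

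Of the remaining cytosolic synthetases, VARS was at 7.70, 2.55, 1.71 and 1.50 TPM in NB4, with 6.53, 6.40, 1.98 and 1.61 TPM in Kasumi-1. It lies on chromosome 6 among the HLA genes, where 268 of 416 genes were listed at 0 in every NB4 library and 264 in every Kasumi-1 library. Of all 55765 gene names, 30213 were above 0 in at least 1 of the 8 libraries. No such count was taken per line over all genes, and the part of the region in the VARS values was not tested. The 12 other eIF2 pathway components had medians between -0.25 and -0.06, with none 2-fold higher in any library. The 13 genes of endoplasmic reticulum stress had medians of 0.32, 0.34 and 0.20 in NB4, against 0.07, 0.20 and -0.53 in Kasumi-1. These are differences from untreated. By level, 9 of the 13 were higher in Kasumi-1 (median line difference -0.30) and 9 of 12 synthetases were higher in NB4 (median 0.22). Over all genes tested the median line difference was 0.0025. At limma's adjusted p under 0.05, 4 of the 13 were higher in Kasumi-1 (27.8% of all genes). In NB4, 3 of the 12 were higher (27.5%).

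Between 6 and 24 h all 12 synthetases were lower in both lines, as were 30.0% of all genes tested. The 24 h minus 6 h difference of the synthetases ran from -0.77 (EPRS) to -0.13 (SARS) in NB4 and from -1.71 (WARS) to -0.11 (LARS) in Kasumi-1. Among regulators 9 of 16 were lower in both lines and none higher in both. The exceptions were TRIB3, PPP1R15A, STC2, CHAC1 and CBS, higher at 24 h than at 6 h in NB4 only, and JDP2 and CTH, higher in Kasumi-1 only. CHAC1 and CBS were at most 0.341 and 0.188 TPM in NB4, so their direction there rests on few reads. TRIB3 had the widest contrast, 0.30 in NB4, against -2.49 in Kasumi-1. Of the related lists, 6 of 11 remaining cytosolic synthetase genes, 11 of 16 mitochondrial ones and 18 of 25 further ATF4 targets were lower at 24 h in both lines.

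**Figure D4:**
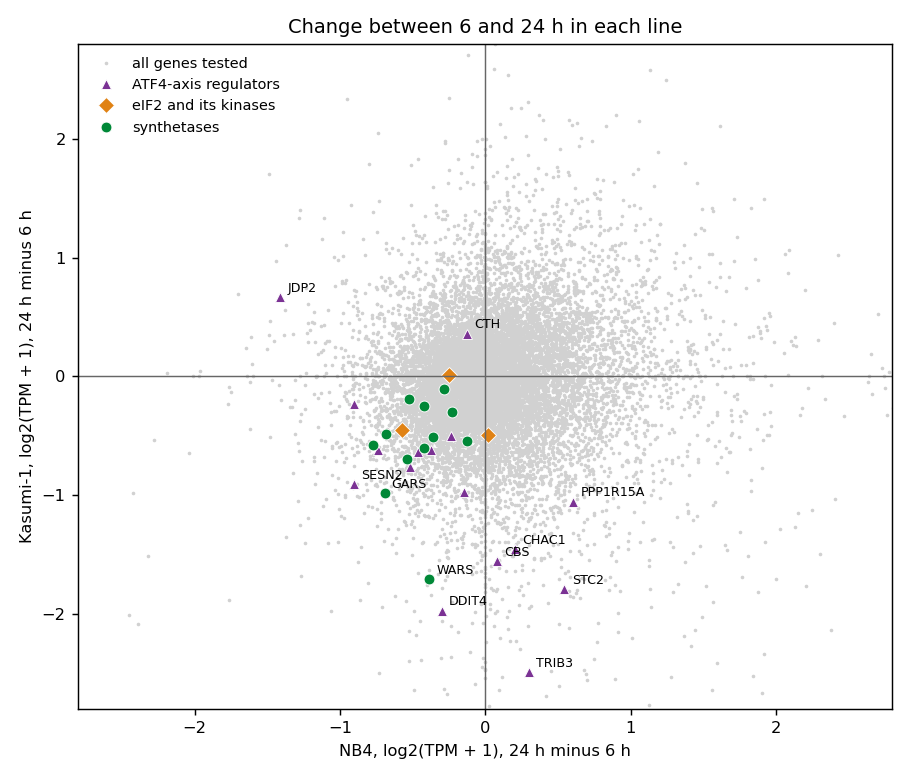
Difference in log2(TPM + 1) between 24 and 6 h in NB4 (horizontal axis) and Kasumi-1 (vertical axis) for all genes tested (grey, 59 of them outside the axes), regulators (purple triangles), eIF2 and kinases (orange diamonds) and synthetases (green circles). All 12 synthetases lie in the lower left quadrant, below 0 in both lines, whereas TRIB3, PPP1R15A and STC2 lie to the right of 0 and JDP2 above it.

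The fit across all genes tested the 24 h against 6 h difference common to both lines. No gene passed limma's Benjamini-Hochberg adjusted p under 0.05 (0% of genes), and so no member did. At an unadjusted p under 0.05, 15 members were lower and none higher, where 3.82% of all genes were lower and 4.05% higher. They were 7 regulators (ATF4, ATF5, CEBPG, DDIT4, EIF4EBP1, SESN2 and XPOT), EIF2S1 and 7 synthetases (EPRS, GARS, IARS, MARS, TARS, WARS and YARS). EIF2S1 was at -0.51 on TPM and at -0.27 on scaled coverage, where it was no longer among those at an unadjusted p under 0.05. DDIT4 (-1.14) was at -0.40 without Kasumi-1 at 24 h, WARS (-1.05) at -0.51 without Kasumi-1 at 6 h, and XPOT (-0.57) at -0.25 without NB4 at 24 h. IARS had the lowest p in limma's test, with a difference of -0.62 (SE 0.153, adjusted p = 0.554), and GARS one of -0.84 (SE 0.231, adjusted p = 0.554). The count leaned on single libraries: leaving out the 6 h library of NB4 made it 9, leaving out that of Kasumi-1 made it 1, and leaving out Kasumi-1 at 24 h made it 7. On FPKM (the depth-scaled abundance that the tables also hold) it was 10.

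The shared response averaged the 3 treated times, subtracted the untreated value and kept cell line as a term; its p is low where both lines differed from untreated by a like amount. No member passed the adjusted threshold of limma, as did 0.0273% of all genes. At an unadjusted p under 0.05, 4 members were higher (9.30% of genes) and 5 lower (11.1%), shares close to those of all genes. The higher ones were PPP1R15A (1.21, SE 0.298, limma adjusted p = 0.117), EIF2AK3 (0.88, SE 0.188, adjusted p = 0.101), ATF5 (0.58, SE 0.222, adjusted p = 0.208) and ATF4 (0.46, SE 0.140, adjusted p = 0.154). Each of these 4 was above untreated in 6 of 6 treated libraries. The same libraries gave the p-values, so the signs are no separate support. The lower ones were CTH (-0.83), SESN2 (-0.74), EIF2S1 (-0.70), EIF2AK4 (-0.35) and IARS (-0.30). SESN2 was not alike in the lines, being above untreated at 6 and 12 h in Kasumi-1 (0.11 and 0.03). Its value was -0.22 without untreated NB4 and -1.26 without untreated Kasumi-1, and that of IARS was -0.17 without untreated NB4. ATF5 was at 0.35 without untreated Kasumi-1. EIF2S1 had the lowest limma adjusted p of any member, 0.081 (SE 0.123), and on scaled coverage its value was -0.30 with an adjusted p of 0.309. The 4 became 8 without untreated NB4 and 2 without untreated Kasumi-1. The 5 became 2 without untreated NB4 or Kasumi-1 at 6 h, and 3 without any other treated library.

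Within NB4 no member passed limma's adjusted threshold, which 0.799% of genes passed. At an unadjusted p under 0.05, EIF2AK3 (1.12) and PPP1R15A (1.17) were higher and CTH (-0.74) and SESN2 (-1.26) lower, where 8.30% of genes were higher and 6.86% lower. The 2 and 2 became 1 and 0 without the 12 h library and 1 and 1 without the 24 h library of NB4. Within Kasumi-1 no member passed either (0.314% of genes). There PPP1R15A (1.25), DDIT3 (0.91), CARS (0.76), EIF2AK3 (0.64) and AARS (0.63) were higher and CHAC1 (-1.15), CTH (-0.92) and EIF2S1 (-0.81) lower at an unadjusted p under 0.05, where 8.18% of genes were higher and 12.0% lower. With the 24 h library of Kasumi-1 left out, the 5 became 10 and PPP1R15A passed the adjusted threshold. With its 12 h library left out they became 3, and with its 6 h library left out 2. CHAC1 was at -0.75 with the 24 h library left out, and EIF2S1 at -0.51 on scaled coverage. In these fits the untreated side is 1 library and the spread is that between times.

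The difference between the responses of the lines was tested as the product of line and treatment. No member passed limma's adjusted threshold (0.130% of genes did). The members with the lowest p were DDIT3 (NB4 minus Kasumi-1 -1.34, SE 0.365, limma adjusted p = 0.315), CARS (-1.07, SE 0.317, adjusted p = 0.335) and AARS (-0.76, SE 0.325, adjusted p = 0.467). JDP2 had a lower value than these, -1.44, with a larger error (SE 0.720, limma adjusted p = 0.531). These 3 were below 0 at an unadjusted p under 0.05 and no member was above 0, where 4.22% and 6.37% of genes were. The 3 became 5 when either the NB4 6 h or the Kasumi-1 24 h library was left out. Leaving out the Kasumi-1 6 h library left 2 members below 0 and put 2 above 0. By sign alone, the difference was below 0 for 12 of 12 synthetases and 12 of 16 regulators, and for 45.4% of all genes. It was below 0 for 3 of 11 remaining cytosolic and 5 of 16 mitochondrial synthetases. DDIT3, JDP2 and CARS were below untreated at all 3 times in NB4 and above it at all 3 in Kasumi-1, and CHAC1 the reverse, with NB4 near 0 TPM. Some of these differences were small, such as -0.11 for JDP2 and -0.08 for CARS at 6 h in NB4. The 3 times of a line share its untreated library, and the share of all genes split this way was not counted.

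Levels of 12 members differed between the lines over the 4 matched conditions in limma's test at an adjusted p under 0.05. EIF2AK4 was higher in NB4 by 1.12 on the log2(TPM + 1) scale (SE 0.111, adjusted p = 2.08e-04), TARS by 0.94 (SE 0.119, adjusted p = 6.34e-04) and EIF4EBP1 by 0.71 (SE 0.115, adjusted p = 0.00199). CTH, GARS, EIF2S1 and MARS were higher in NB4 by 0.53, 0.52, 0.52 and 0.38. In Kasumi-1 CBS was higher (NB4 minus Kasumi-1 -4.71, SE 0.304, adjusted p = 3.03e-05), as were CHAC1 (-4.14, SE 0.348, adjusted p = 9.60e-05) and STC2 (-2.01, SE 0.382, adjusted p = 0.00401), and less so EIF2AK3 (-0.56) and CEBPG (-0.55). Each of the 12 had its direction in 4 of 4 matched pairs of libraries, the same pairs that the test used. Those signs are therefore no separate support, and the 4 pairs are times of a series, not repeat cultures. The 7 and 5 of 31 members are not above the 27.5% and 27.8% of all genes higher in NB4 and in Kasumi-1. Without 1 library the 7 became 4 (without either untreated or either 24 h library) and the 5 became 3 (without either 6 h or either 12 h library). CTH, MARS, GARS, CEBPG and EIF2AK3 were the calls lost in at least 1 of those fits.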

How the data were processed

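RNA of 8 samples was sequenced, per the labels' protocols after column purification, DNase treatment and an Illumina TruSeq RNA preparation; whether strand was kept is not stated. HISAT2, StringTie and hg19 are named, without versions, per the submitters' processing notes. Each table lists 57820 gene IDs. The deposited TPM and FPKM values are scaled abundances and the deposited coverage is a mean read depth, per the file headers. The values are not counts, total reads are unknown, and coverage per TPM over the members was 1.44 to 2.17.

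Rows of a name were summed. A mean of 1 TPM or more over the libraries let 14650 genes into the tests on log2(TPM + 1), a scale that understates differences of low genes. The tool was limma 3.58.1 (R 4.3.3; lmFit, contrasts.fit, eBayes with a trend on intensity); p-values are two-sided and Benjamini-Hochberg adjusted over all genes. Additive fits of line and time had 3 residual degrees of freedom, and line by treatment fits 4; p-values measure likeness between lines or between times, not between cultures. The code of the fits was tried on simulated data with independent noise and large set changes. That checks the code, not how well the fits suit these libraries. Python 3.11.15, pandas 2.3.3, numpy 2.4.6 and matplotlib 3.10.9 made the tables and plots.

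Members and lists were chosen with earlier results of these data known. Members at least 2-fold from untreated in a library, with at least 5 TPM somewhere, were given in full (15 genes), and ATF4 always. Genes outside the members were named where 2-fold from untreated one way at all 3 times of a line. Alternatives were a pseudocount of 0.1 TPM, other filters, FPKM, TPM without mitochondrial and the 10 most abundant genes of each library, no trend, no time term and each library left out; scaled coverage and lists without single genes were added after seeing the data. Scaled coverage is the deposited coverage divided by the library's median coverage per TPM. Promoter windows came from RefSeq (GRCh38.p14) and gene coordinates from the tables (hg19); the builds were not mixed.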

Additional observations from a re-analysis of the deposited data

How the results depend on the processing

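Every condition has 1 library, so precision between cultures is unknown. The 90 alternative values of the list medians, including lists without CBS and CHAC1, without DDIT3 or without WARS, moved by at most 0.15 (log2). Of 786 alternative values of single members, none changed sign, 43 lost and 5 gained a call. In the shared response and the 24 h against 6 h difference, the members followed were those at an unadjusted p under 0.05 in the main fit. A kept sign was thus in part fixed by that choice. Outside it, JDP2 in the shared response was at -0.019 on TPM and 0.086 on scaled coverage, and TARS at 0.059 and -0.019. Members higher in NB4 in the line difference numbered 4 (in place of 7) with no filter on low values and 4 with TPM without mitochondrial and most abundant genes; leaving out 1 library gave 4 to 7, and for those higher in Kasumi-1 3 to 7 (in place of 5). Members called higher in the Kasumi-1 response ranged from 0 to 1. The cause was not tested. The labels give no replicate numbers to block on; libraries of the lines were paired by time, through the line and time terms. Values near 0 TPM rest on few reads.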
